A study of Mus musculus with 6 samples.

Results

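Germline and early embryo genes were followed in luminal mammary epithelial cells of a mouse model of basal-like breast cancer. The set held 33 named genes of meiosis, germ granules and piRNA defence, together with every gene of the array whose symbol begins with *Zscan4* (5 genes) or *Pramel* (33 genes), so 71 genes in all. Of these 70 were measured, among 19505 named genes on the array, and *Piwil4* had no named probe set. Where a gene had several probe sets, the one read was chosen by its mean over the 6 arrays, the highest being kept, which mattered only for *Pramel39* and *Pramel42*, each with 2 probe sets. The families were chosen by name, after *Zscan4c* and *Pramel19* were known to be among the largest rises in these arrays. The differences of *Zscan4* and *Pramel* genes are therefore given as a description, with no p-value and nothing read from a test. Their calls enter only counts over all 70 genes. The listed genes were also put forward with earlier results of these data known, so their p-values are not those of an unselected set.

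The 2 sorts were luminal cells high in Sox9-GFP (Sox9-GFP high) and luminal cells low in it (Sox9-GFP low), with 3 arrays each. Both came from female animals of the Sox9-GFP;C3(1)/Tag cross at an age of about 3 months, which carry SV40 large T antigen under the C3(1) promoter and a Sox9-EGFP reporter transgene, on a background that is mainly FVB. Mammary glands of 3 animals were dissociated and the cells were separated by flow cytometry. Arrays are numbered 1 to 3 within a sort, but no label ties a number to an animal or says whether glands were pooled, so p-values measure the spread between these arrays. Both sorts carry the T antigen transgene, and its expression was not analysed here.

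Genes of this kind are active in germ cells or in the first days of the embryo and are held silent in most adult tissues. Many meiosis and piRNA genes carry CpG-rich promoters that are repressed by DNA methylation and by Polycomb complexes containing E2F6, MGA and MAX. The *Zscan4* genes encode SCAN-domain zinc finger proteins of the 2-cell embryo, which also appear in a small and changing share of embryonic stem cells, and the *Pramel* genes encode leucine-rich repeat proteins of gonads and early embryos. Expression of such genes in tumors is the basis of the term cancer-testis gene.

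The arrays agreed closely, with a Pearson's r across 22206 probe sets of 0.992 to 0.994 within a sort and 0.979 to 0.988 between sorts, and array medians on the log2 scale of 5.15 to 5.21. *Sox9*, on whose reporter the cells were sorted, had log2 values of 14.42, 13.77 and 14.46 in Sox9-GFP high cells, against 13.36, 12.82 and 13.44 in Sox9-GFP low cells (p = 0.10 by a two-sided exact permutation test, below which 3 against 3 cannot go). The luminal keratin genes *Krt8* (17.09 in Sox9-GFP high cells, 17.19 in Sox9-GFP low cells) and *Krt18* (17.59 in Sox9-GFP high cells, 17.50 in Sox9-GFP low cells) were near the top of the scale in both sorts. Of 7 luminal markers 0 were higher and 2, *Krt19* and *Elf5*, lower in Sox9-GFP high cells, and of 8 basal markers 0 were higher and 1, *Itga6*, lower (difference -1.54). The basal keratin gene *Krt14* had 15.08, 14.48 and 14.85 in Sox9-GFP high cells, against 14.51, 14.19 and 14.04 in Sox9-GFP low cells (difference 0.55, SE 0.21; limma, adjusted p = 0.159). The deposited values hold no measure of background, and 51 of the 70 genes lay below the array median on all 6 arrays, so a low value may be no expression at all. In sorted bulk cells, a change in the share of expressing cells and a change in RNA per cell cannot be told apart.

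Of the listed germline genes 2 of 32, *Dmc1* and *Syce2*, were higher in Sox9-GFP high cells and 0 were lower. In limma's moderated test over all probe sets (adjusted p under 0.05 by Benjamini-Hochberg), this share of 6.25% stands beside 888 of the 22206 probe sets higher (4%) and 711 lower (3.2%), and is near that background. At an unadjusted p under 0.05 the same 2 genes were higher and 0 lower, against 11.7% and 8.96% of all probe sets. In 4 of the 32 the lowest Sox9-GFP high value exceeded the highest Sox9-GFP low value, and in 1, *Rec8*, the sorts were apart in the other direction, against 14.1% and 11.4% of all probe sets. Deviations from the sort means went together in arrays with the same number, and with that number as a block 2 of the 32 were higher and 0 lower, against 6.32% and 4.99% of all probe sets. With both families the count over the threshold was 10 of 70, but 8 of these are *Zscan4* and *Pramel* genes, whose families were taken up for rises in this same contrast, so that count is no evidence about the set. The median log2 difference was 0.02 over the listed genes and 0.04 over the 70 genes, beside 0.01 over all named genes.

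**Figure D1:**
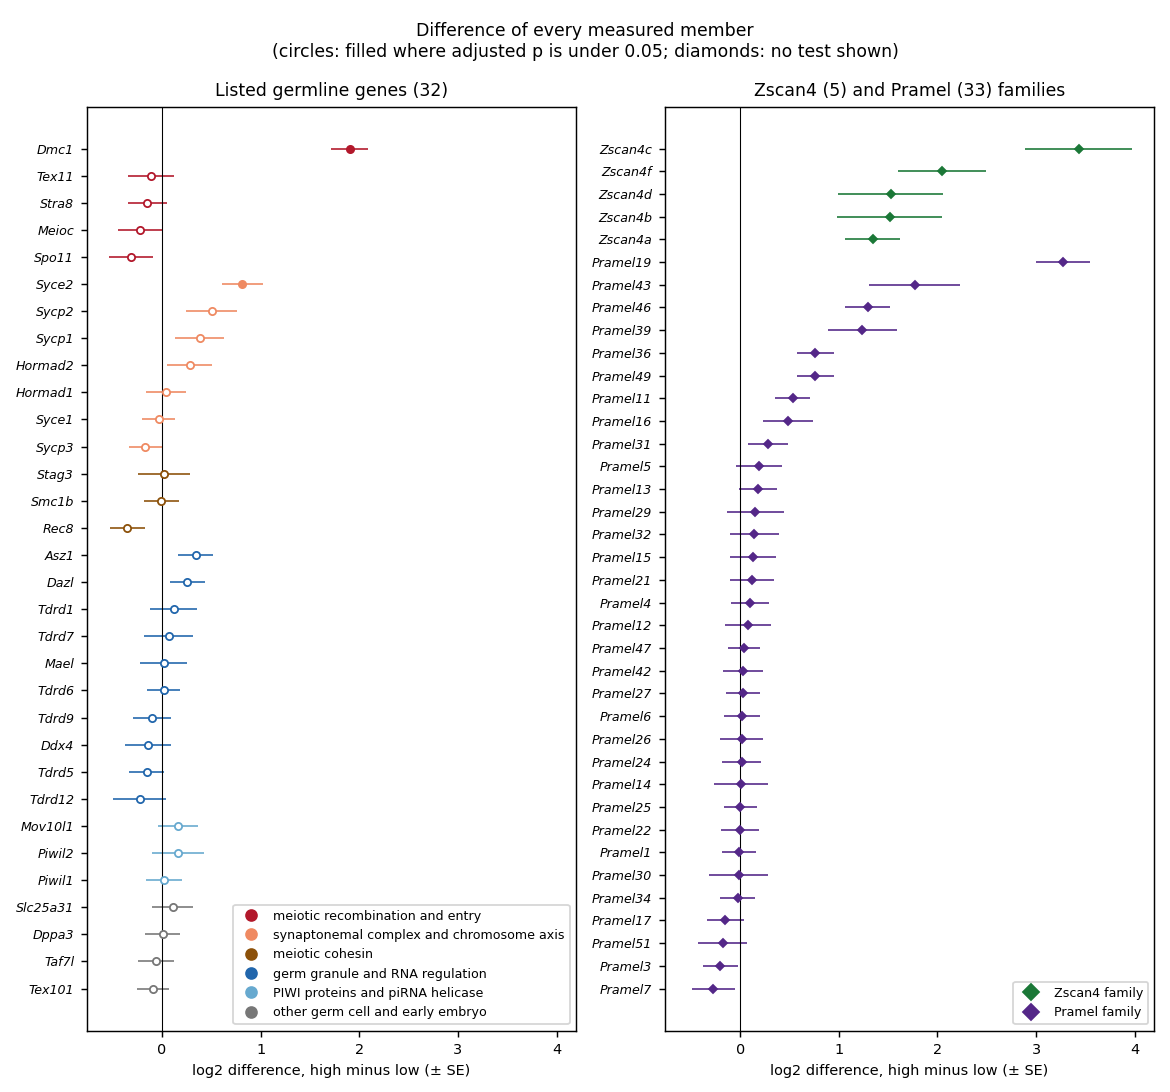
Log2 difference (Sox9-GFP high cells minus Sox9-GFP low cells) of each measured gene with its standard error from limma, listed germline genes at left by role and both families at right; filled circles passed the threshold over all probe sets, and diamonds are family genes with no test shown. Among the 32 listed genes 2 are filled and stand right of the others, while all 5 *Zscan4* genes and a few *Pramel* genes lie above 1.

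*Dmc1*, the meiosis-specific recombinase that carries out strand exchange at programmed DNA breaks, showed the largest difference among the listed germline genes. Its log2 values were 7.14, 7.55 and 7.39 in Sox9-GFP high cells, against 5.64, 5.22 and 5.51 in Sox9-GFP low cells. All 6 values were above their array medians, and the lowest Sox9-GFP high array stood well clear of the highest Sox9-GFP low array. The difference was 1.90 (SE 0.19), a 3.74-fold higher level (limma, adjusted p = 0.000589). The gene passed in 9 of 9 refits, each without 1 array or without 1 array number in both sorts. These refits use the same arrays, and the list was put forward with earlier results of these data known.

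The genes that act just before and beside *Dmc1* in meiosis did not pass the test. *Spo11*, which makes the breaks that DMC1 repairs, had log2 values of 3.10, 3.09 and 3.12 in Sox9-GFP high cells, against 3.01, 3.86 and 3.40 in Sox9-GFP low cells, all below the array medians (difference -0.32, SE 0.22; limma, adjusted p = 0.489). *Stra8*, the retinoic acid-induced gene of meiotic entry, had 4.26, 4.43 and 4.20 in Sox9-GFP high cells, against 4.24, 4.78 and 4.31 in Sox9-GFP low cells. *Meioc*, needed to stay in meiotic prophase, and *Tex11*, an X-linked crossover gene, differed by -0.22 (SE 0.22) and -0.11 (SE 0.23). Thus 1 of the 5 genes of recombination and meiotic entry was higher, beside 4% of all probe sets, and the other 4 were under the median of each array.

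*Syce2*, a central element protein of the synaptonemal complex that joins paired chromosomes, stood apart by its level. Its log2 values were 13.77, 14.46 and 14.31 in Sox9-GFP high cells, against 13.46, 13.43 and 13.21 in Sox9-GFP low cells, and the sorts did not overlap. The difference was 0.82 (SE 0.21), a 1.76-fold higher level (limma, adjusted p = 0.0459). The call was lost on leaving out any single array other than Sox9-GFP high array 1, with adjusted p of 0.0852 to 0.148. In the RefSeq annotation *Syce2* overlaps *Gcdh*, a mitochondrial dehydrogenase gene, and the place of the array's probes was not analysed here.

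The remaining structural genes of meiotic chromosomes gave no calls. *Sycp1*, the transverse filament protein, was above the array median on all arrays, at 7.37, 7.42 and 7.25 in Sox9-GFP high cells, against 7.30, 6.37 and 7.21 in Sox9-GFP low cells (difference 0.38, SE 0.25; limma, adjusted p = 0.448). *Sycp3*, a protein of the lateral elements, was also above the medians, at 7.07, 6.90 and 7.05 in Sox9-GFP high cells, against 7.25, 7.23 and 7.04 in Sox9-GFP low cells. The RefSeq span of *Sycp3* overlaps *Chpt1*. The sorts overlapped in both genes. *Sycp2*, another lateral element gene, differed by 0.50 (SE 0.26) at values of 2.37 to 3.46. *Syce1* and the axis genes *Hormad1* and *Hormad2* differed by -0.03 to 0.28. Of the 3 meiotic cohesin genes, *Stag3* and *Smc1b* differed by 0.02 and -0.01, while *Rec8*, the kleisin subunit, had 3.30, 3.06 and 3.46 in Sox9-GFP high cells, against 3.62, 3.54 and 3.73 in Sox9-GFP low cells (difference -0.35, SE 0.18; limma, adjusted p = 0.303).

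Of the germ granule genes 0 of 10 and of the PIWI and piRNA helicase genes 0 of 3 were called. With 4% of all probe sets higher and 3.2% lower, groups this small may hold no call, so these counts do not set them apart. Germ granules are cytoplasmic bodies of RNA helicases and Tudor-domain proteins, in which PIWI proteins and their small RNAs silence transposons. *Ddx4*, the helicase most used as a germ cell marker, had 3.26, 2.96 and 3.71 in Sox9-GFP high cells, against 3.81, 3.31 and 3.25 in Sox9-GFP low cells. *Dazl*, an RNA-binding regulator of translation, had 4.58, 4.92 and 4.56 in Sox9-GFP high cells, against 4.42, 4.32 and 4.55 in Sox9-GFP low cells. *Asz1*, a germ granule scaffold, had 4.63, 4.33 and 4.37 in Sox9-GFP high cells, against 3.89, 4.21 and 4.21 in Sox9-GFP low cells. In *Dazl* and *Asz1* alone of these groups the sorts did not overlap, both higher in Sox9-GFP high cells. Across all probe sets 14.1% were apart in that direction and 11.4% in the other, so 2 such genes are near that background. Neither passed (limma, adjusted p = 0.491 and 0.333). *Tdrd7*, a Tudor-domain gene also known for its role in the lens, was above the array median on all arrays, with a difference of 0.07 (SE 0.25). *Mael* and the other Tudor-domain genes *Tdrd1*, *Tdrd5*, *Tdrd6*, *Tdrd9* and *Tdrd12* differed by -0.23 to 0.12. The PIWI genes *Piwil1* and *Piwil2* and the piRNA helicase gene *Mov10l1* differed by 0.02 to 0.17.

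*Tex101*, a sperm surface protein, *Taf7l*, a germ cell variant of a general transcription factor subunit, *Slc25a31*, an ADP/ATP carrier of spermatogenic cells, and *Dppa3*, which protects maternal methylation in the zygote, completed the list. Their differences were -0.10 to 0.11 and their values were below the array medians on all arrays. Over the listed germline genes, 30 of 32 did not pass, with differences from -0.35 to 0.50, of which 16 were positive and 14 negative. A total of 25 of the 32 lay below the array median on all 6 arrays.

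**Figure D2:**
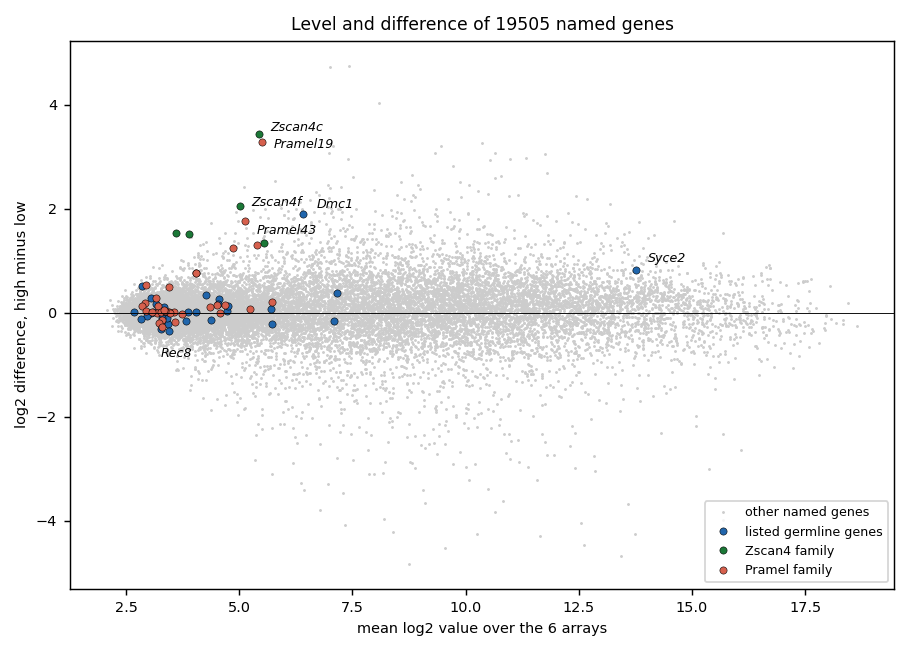
Mean log2 value over the 6 arrays (horizontal) against the log2 difference (vertical; Sox9-GFP high cells minus Sox9-GFP low cells) for 19505 named genes, with the germline and early embryo genes in color. Most of them crowd at the dim end around a difference of 0, *Zscan4c* and *Pramel19* stand at 3.43 and 3.27, and *Syce2* is the only one at the bright end.

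All 5 *Zscan4* genes were higher on each Sox9-GFP high array than on any Sox9-GFP low array, as were 14.1% of all probe sets. The family was taken up with the rise of *Zscan4c* known, so this separation is only a description. *Zscan4c* had log2 values of 8.43, 7.31 and 5.71 in Sox9-GFP high cells, against 3.57, 3.46 and 4.12 in Sox9-GFP low cells. The 3 Sox9-GFP high values were above the array medians and spread over 2.72 log2 units, whereas the 3 Sox9-GFP low values were below the medians. The difference was 3.43 (SE 0.54), or 10.8-fold. It was 6.93-fold without Sox9-GFP high array 1 and 17.8-fold without Sox9-GFP high array 3.

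*Zscan4f* had 7.30, 5.50 and 5.33 in Sox9-GFP high cells, against 4.24, 4.15 and 3.62 in Sox9-GFP low cells, a difference of 2.04 (SE 0.45) or 4.13-fold, and 2.67-fold without Sox9-GFP high array 1. *Zscan4a* had 6.89, 6.05 and 5.70 in Sox9-GFP high cells, against 4.67, 4.92 and 5.02 in Sox9-GFP low cells, a difference of 1.34 (SE 0.28) or 2.54-fold. These genes, like *Zscan4c*, were above the medians only in Sox9-GFP high cells.

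In the other 2 genes of the family 1 array stood above the rest. *Zscan4d* had 5.94, 3.75 and 3.40 in Sox9-GFP high cells, against 3.01, 2.85 and 2.65 in Sox9-GFP low cells. *Zscan4b* had 6.22, 4.09 and 3.60 in Sox9-GFP high cells, against 3.07, 3.05 and 3.25 in Sox9-GFP low cells. In both, Sox9-GFP high array 1 alone was above the array median. Their folds were 2.88 and 2.86, and 1.67 and 1.65 without that array. Sox9-GFP high array 1 held the highest and array 3 the lowest Sox9-GFP high value in all 5 *Zscan4* genes, and the median difference over the family was 1.53.

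The *Zscan4* genes are near-identical copies in 1 cluster on chromosome 7, and their probe sets may read each other's transcripts, so the 5 genes are not 5 independent measurements and the value of any 1 copy is uncertain. The promoter windows of 4 of them in RefSeq (GRCm38.p6, 250 bases before to 50 after the start) were 95.3% to 99.3% identical in pairs. Those of *Zscan4c* (chr7:11005495-11005794, plus strand), *Zscan4d* (chr7:11166099-11166398, minus strand) and *Zscan4f* (chr7:11397665-11397964, plus strand) are shown to let the copies be compared. Capitals mark a run of 55 bases that is the same in all 4 windows, *Zscan4b* included, and it holds a TATAAA box.
Zscan4c: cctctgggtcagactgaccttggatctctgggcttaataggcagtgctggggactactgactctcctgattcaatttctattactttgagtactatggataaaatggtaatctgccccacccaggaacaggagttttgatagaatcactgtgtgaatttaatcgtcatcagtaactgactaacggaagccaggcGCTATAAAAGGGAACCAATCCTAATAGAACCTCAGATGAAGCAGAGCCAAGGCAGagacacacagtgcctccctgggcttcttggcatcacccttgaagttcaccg
Zscan4d: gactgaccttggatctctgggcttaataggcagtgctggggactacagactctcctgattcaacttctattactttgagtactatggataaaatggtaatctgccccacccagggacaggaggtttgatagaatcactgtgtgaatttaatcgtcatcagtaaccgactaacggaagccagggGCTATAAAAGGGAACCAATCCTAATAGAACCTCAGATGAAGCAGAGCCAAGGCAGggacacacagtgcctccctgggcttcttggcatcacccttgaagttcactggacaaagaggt
Zscan4f: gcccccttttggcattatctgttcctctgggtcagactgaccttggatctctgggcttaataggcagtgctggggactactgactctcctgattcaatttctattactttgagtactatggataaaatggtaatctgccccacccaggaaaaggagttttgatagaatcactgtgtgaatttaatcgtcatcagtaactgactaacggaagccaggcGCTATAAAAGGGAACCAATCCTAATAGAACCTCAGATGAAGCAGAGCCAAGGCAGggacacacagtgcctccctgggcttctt
The letters differ at scattered places outside the run, and the windows of *Zscan4c* and *Zscan4d*, with differences of 3.43 and 1.53, were 97.2% identical. Of 6 named genes directly beside the cluster, none of them a *Zscan4* gene, 0 were called, with differences from -0.40 to 0.25. Over all probe sets 4% were called higher and 3.2% lower.

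Of the 33 *Pramel* genes, 21 lie on chromosome 4 and 8 in 1 cluster on chromosome 5. *Pramel19* on chromosome 4 had log2 values of 7.75, 7.11 and 6.58 in Sox9-GFP high cells, against 4.04, 3.66 and 3.92 in Sox9-GFP low cells. Every Sox9-GFP high value was above the array median and every Sox9-GFP low value below it, with a gap between the sorts wider than the spread within either. The difference was 3.27 (SE 0.27) or 9.66-fold. Of the other 20 *Pramel* genes of that chromosome, *Pramel17*, next to *Pramel19*, differed by -0.15 (SE 0.19). *Pramel11* was the only one without overlap, at 3.44, 3.09 and 3.10 in Sox9-GFP high cells, against 2.58, 2.67 and 2.78 in Sox9-GFP low cells. The 5 other named genes beside *Pramel19* differed by -0.27 to 0.48 and were not called.

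The *Pramel* genes of chromosome 5 formed the second locus. In 5 of 8 the sorts did not overlap, all higher in Sox9-GFP high cells, against 14.1% of all probe sets in that direction. *Pramel36* and *Pramel49* are both in the 5 but have identical values. The family was taken up with a rise in this contrast known, so the count is only a description. *Pramel46* had 6.51, 5.96 and 5.62 in Sox9-GFP high cells, against 4.84, 4.77 and 4.61 in Sox9-GFP low cells, a difference of 1.29 (SE 0.23) or 2.45-fold. *Pramel43* had 6.88, 6.48 and 4.69 in Sox9-GFP high cells, against 4.26, 4.02 and 4.46 in Sox9-GFP low cells, a difference of 1.77 (SE 0.46) or 3.41-fold. Sox9-GFP high array 3 of *Pramel43* was close to the Sox9-GFP low arrays, and the fold was 5.41 without it.

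*Pramel36* and *Pramel49* had the same values on all arrays, 4.40, 4.72 and 4.18 in Sox9-GFP high cells, against 3.71, 3.75 and 3.57 in Sox9-GFP low cells, and are in effect 1 measurement. Their difference was 0.76 (SE 0.19), and all values were below the array medians. *Pramel39* had 6.32, 5.38 and 4.77 in Sox9-GFP high cells, against 3.98, 4.15 and 4.63 in Sox9-GFP low cells, a difference of 1.24 (SE 0.35), and its second probe set differed by 0.26. *Pramel34*, *Pramel42* and *Pramel47* differed by -0.03 to 0.04. The genes of this cluster are close copies and several overlap a further gene model in RefSeq, so the value of any 1 of them is uncertain.

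Inside the chromosome 5 cluster lie 4 other named genes, which differed by 0.04 to 0.36 with 0 called. Of 6 named genes beside it, 1 was called, *Cnot6l*, a deadenylase subunit singled out after its value was seen (difference 1.03; limma, adjusted p = 0.0218). These counts stand beside 4% of all probe sets higher and 3.2% lower. In the 4 *Pramel* genes on other chromosomes the sorts overlapped, *Pramel7*, a gene of the inner cell mass, among them (difference -0.27, SE 0.22). The median difference over the 33 *Pramel* genes was 0.08, and 26 of them lay below the array median on all arrays.

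Promoter letters differed between the listed germline genes and both families. RefSeq windows were found for 58 of the 70 genes, 27 listed genes, 4 *Zscan4* genes and 27 *Pramel* genes. For a gene with several windows the highest CpG count was taken, and a run of letters was counted if any window held it. The listed genes had a median of 20 CpG dinucleotides (10 to 48), and 27 of 27 had 10 or more, against 45.8% of the 27025 genes in the table, whose median was 8. The *Zscan4* windows had a median of 3 (1 to 4) and the *Pramel* windows a median of 1 (0 to 20). CACGTG, the E-box that MAX dimers bind, read on both strands, was in 13 of 27 listed genes (48.1%) and in 8.09% of all genes. TCCCGC, part of the E2F site, read on both strands, was also in 13 of 27 (48.1%), against 22% of all genes. Neither was found in a *Zscan4* or *Pramel* window. CACGTG and TCCCGC each contain a CpG, so their shares are not independent of the CpG counts. No comparison with genes of like CpG count was made. TATAAA, a motif chosen after the sequences were seen and likewise read on both strands, was in 4 of 4 *Zscan4* windows and 7 of 27 *Pramel* windows (25.9%), against 15.7% of all genes. A match is a run of letters and not a bound site.

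The windows of *Dmc1* (chr15:79605060-79605359, minus strand) and *Syce2* (chr8:84872008-84872307, plus strand), the 2 listed genes that were called, are shown with TCCCGC and its reverse complement GCGGGA in capitals.
Dmc1: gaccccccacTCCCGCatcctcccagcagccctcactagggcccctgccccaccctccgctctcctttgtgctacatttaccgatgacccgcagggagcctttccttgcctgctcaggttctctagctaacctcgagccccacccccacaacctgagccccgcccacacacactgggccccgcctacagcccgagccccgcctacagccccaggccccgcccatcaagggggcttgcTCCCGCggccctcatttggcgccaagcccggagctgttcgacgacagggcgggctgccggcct
Syce2: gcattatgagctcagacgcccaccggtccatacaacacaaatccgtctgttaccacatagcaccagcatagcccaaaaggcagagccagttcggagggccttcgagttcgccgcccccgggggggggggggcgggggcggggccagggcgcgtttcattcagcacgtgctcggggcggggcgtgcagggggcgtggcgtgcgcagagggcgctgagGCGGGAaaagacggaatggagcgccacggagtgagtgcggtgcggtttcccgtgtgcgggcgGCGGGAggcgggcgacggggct
Each holds 2 such matches, and they have 18 and 33 CpG dinucleotides. TCCCGC was in 2 of 2 called listed genes and in 11 of the 25 that were not called (44%), so 11 of the 13 listed genes with these letters were not called. The windows of *Pramel19* (chr4:101940157-101940456, plus strand), *Pramel43* (chr5:94616291-94616590, minus strand) and *Pramel46* (chr5:95272706-95273005, minus strand) show the opposite makeup, with each CpG in capitals.
Pramel19: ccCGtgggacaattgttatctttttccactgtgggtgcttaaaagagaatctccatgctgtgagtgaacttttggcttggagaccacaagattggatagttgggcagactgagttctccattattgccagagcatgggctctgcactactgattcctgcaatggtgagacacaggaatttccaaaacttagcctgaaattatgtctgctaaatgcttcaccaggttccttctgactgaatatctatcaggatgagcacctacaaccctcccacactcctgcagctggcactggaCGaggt
Pramel43: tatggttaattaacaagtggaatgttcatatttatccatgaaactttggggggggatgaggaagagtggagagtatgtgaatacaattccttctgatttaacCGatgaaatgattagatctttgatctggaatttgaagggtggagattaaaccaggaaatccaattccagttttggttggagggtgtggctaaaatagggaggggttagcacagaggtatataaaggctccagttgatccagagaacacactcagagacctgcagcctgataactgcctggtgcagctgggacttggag
Pramel46: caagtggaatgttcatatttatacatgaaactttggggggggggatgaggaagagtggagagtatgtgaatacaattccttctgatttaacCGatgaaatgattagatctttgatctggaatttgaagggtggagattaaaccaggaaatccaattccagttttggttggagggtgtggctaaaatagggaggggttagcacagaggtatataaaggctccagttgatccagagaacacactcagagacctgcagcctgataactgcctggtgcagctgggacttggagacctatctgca
*Pramel19* has 2 CpG dinucleotides and the others 1 each. The windows of the chromosome 5 genes *Pramel39*, *Pramel43*, *Pramel46* and *Pramel49* were 99% to 99.7% identical in pairs.

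**Figure D3:**
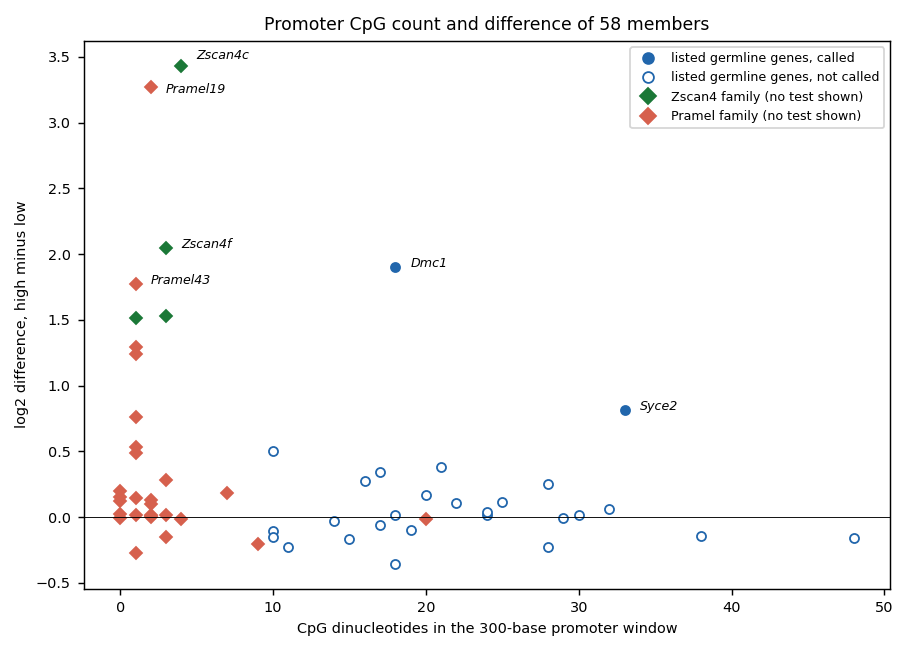
Number of CpG dinucleotides in the promoter window, the highest where a gene has several (horizontal), against the log2 difference (vertical; Sox9-GFP high cells minus Sox9-GFP low cells) for the 58 genes with a window; filled circles are listed genes that passed the threshold, and diamonds are family genes with no test shown. *Zscan4* and *Pramel* genes with differences above 1 have 4 CpG dinucleotides or fewer, and among the listed genes, all with 10 or more, *Dmc1* and *Syce2* stand above the rest.

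The same test was read over 10 further lists of germline, embryo and repressor genes, 256 measured genes in all. The counts stand beside 4% of all probe sets higher and 3.2% lower (6.32% and 4.99% with the block). Of 30 other meiosis genes 1 was higher and 1 lower. *Msh5*, a crossover gene, had 4.90, 5.17 and 5.24 in Sox9-GFP high cells, against 4.47, 4.17 and 4.55 in Sox9-GFP low cells (limma, adjusted p = 0.0478, passing in 0 of 9 refits). *Hsf2bp*, which brings BRCA2 to meiotic breaks, had 5.88, 5.64 and 5.53 in Sox9-GFP high cells, against 6.59, 7.60 and 6.39 in Sox9-GFP low cells (limma, adjusted p = 0.0389, passing in 1 of 9 refits). Of 15 other piRNA and germ granule genes 0 were called in the fit without a block (2 at an unadjusted p under 0.05) and 1 with it. *Mybl1*, a transcription factor of meiotic prophase, had 13.25, 12.72 and 12.80 in Sox9-GFP high cells, against 12.14, 11.69 and 12.41 in Sox9-GFP low cells (limma, adjusted p = 0.0575, and 0.0252 with the block).

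Of 7 testis histone genes 2 were higher and 0 lower, beside 4% and 3.2% of all probe sets. The count includes a gene whose rise was known beforehand, so it is no evidence about the list. *H2bc1*, a testis-specific H2B gene known beforehand to be among the large rises, had 7.89, 7.74 and 9.90 in Sox9-GFP high cells, against 5.47, 5.72 and 5.15 in Sox9-GFP low cells, 8.35-fold, and 5.17-fold without Sox9-GFP high array 3. *H2ac1*, its H2A partner, had 9.15, 9.81 and 10.01 in Sox9-GFP high cells, against 8.58, 8.32 and 8.03 in Sox9-GFP low cells, a difference of 1.35 (SE 0.25; limma, adjusted p = 0.0103, passing in 7 of 9 refits). Both belong to a family whose probe sets may share transcripts.

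Of 21 germ cell specification and spermatogonial genes 1 was higher and 1 lower. *Uchl1*, a ubiquitin hydrolase of spermatogonia and neurons, had 6.23, 5.63 and 5.50 in Sox9-GFP high cells, against 4.71, 4.44 and 4.29 in Sox9-GFP low cells (limma, adjusted p = 0.00795, passing in 7 of 9 refits). *Tfap2c*, a transcription factor of germ cell specification that also acts in luminal mammary cells, had 8.70, 8.64 and 9.02 in Sox9-GFP high cells, against 10.34, 10.04 and 10.28 in Sox9-GFP low cells (limma, adjusted p = 0.00187). Of 32 spermatid and testis genes and 27 oocyte and maternal effect genes, 0 were called either way, and 4 and 0 had an unadjusted p under 0.05, with median differences of -0.07 and -0.06. With the block 1 spermatid gene was lower, *Tcp11*, at 2.91, 3.13 and 2.72 in Sox9-GFP high cells, against 3.62, 3.55 and 3.41 in Sox9-GFP low cells (limma, adjusted p = 0.0731 without the block), and 2 in place of 1 of the specification genes were lower.

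Of 23 other genes of the 2-cell embryo, 1 was higher and 0 were lower, and the median difference was -0.01, beside 1.53 in the *Zscan4* family. The gene called was *Usp17le*, a deubiquitinase of a multigene family, with 5.87, 4.99 and 4.94 in Sox9-GFP high cells, against 3.78, 4.04 and 4.43 in Sox9-GFP low cells (difference 1.18, SE 0.28; limma, adjusted p = 0.0301, passing in 3 of 9 refits). Of 22 pluripotency genes 1 was higher, *Klf4*, which is also an epithelial gene, at 14.23, 14.16 and 14.00 in Sox9-GFP high cells, against 13.42, 13.02 and 13.19 in Sox9-GFP low cells (limma, adjusted p = 0.0132, passing in 6 of 9 refits), and 2 were higher with the block. Of 46 genes taken by symbol for X-linked cancer-testis families 0 were called (1 at an unadjusted p under 0.05). Of the 46, 37 lay below the array median on all arrays. The symbol match also took in *Ssx2ip*, which is not a gene of those families. The largest difference in this list was in *Xlr4b*, at 8.15, 5.24 and 7.04 in Sox9-GFP high cells, against 5.69, 4.99 and 6.21 in Sox9-GFP low cells, where the sorts overlapped. Its fold was 2.27 (limma, adjusted p = 0.314), 1.43 without Sox9-GFP high array 1 and 3.91 without Sox9-GFP high array 2, where it passed (adjusted p = 0.0297). *Xlr4c*, of the same family, differed by 1.11 (SE 0.52) or 2.16-fold (limma, adjusted p = 0.263, and 0.0444 with the block). It was 1.44-fold without Sox9-GFP high array 1 and 3.34-fold without Sox9-GFP high array 2 (adjusted p = 0.0415).

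Genes whose products silence germline or 2-cell genes were mostly well expressed, and 4 of 34 were higher (5 with the block) and 1 lower. This share of 11.8% higher stands beside 4% of all probe sets higher and 3.2% lower (6.32% and 4.99% with the block). The median difference was 0.23, beside 0.01 over all named genes. Whether the list as a whole differs was not tested. *Chaf1b*, a subunit of the histone chaperone CAF-1, had 12.03, 11.74 and 11.79 in Sox9-GFP high cells, against 10.70, 11.11 and 10.57 in Sox9-GFP low cells (limma, adjusted p = 0.0107, passing in 7 of 9 refits). *Hells*, a chromatin remodeler, and *Uhrf1*, which recruits the maintenance DNA methyltransferase, were higher by 1.05 (SE 0.20) and 0.75 (SE 0.19), and these 3 genes also serve DNA replication. The call of *Hells* passed in 6 of 9 refits and that of *Uhrf1* in 0 of 9. *Rnf2*, a core Polycomb gene named after its value was seen, was the fourth gene called higher, with a difference of 0.74. *Ehmt1*, a histone H3 methyltransferase gene, was the lower one, at 9.55, 10.27 and 9.52 in Sox9-GFP high cells, against 11.18, 11.15 and 10.78 in Sox9-GFP low cells (difference -1.25, SE 0.24; limma, adjusted p = 0.0114, passing in 7 of 9 refits).

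**Figure D4:**
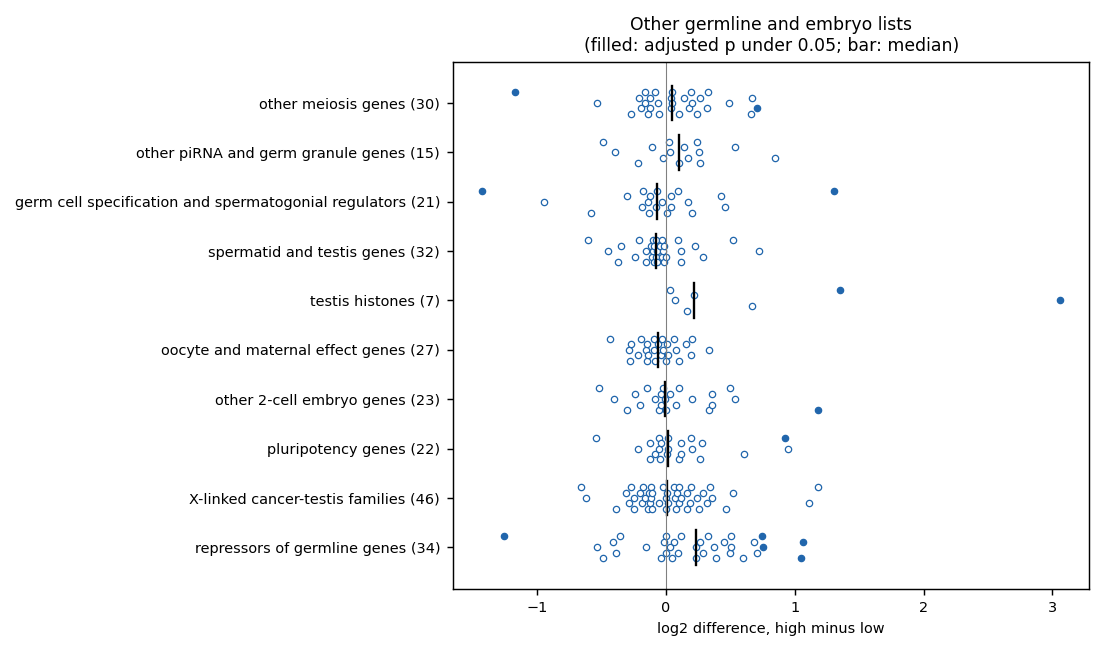
Log2 difference (Sox9-GFP high cells minus Sox9-GFP low cells) of each measured gene in 10 lists of other germline, embryo and repressor genes (vertical scatter only spreads the points), with the list median as a bar; filled points passed the threshold. Medians lie between -0.07 and 0.23, and *H2bc1* among the testis histones is the point at 3.06.

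Markers of gonadal cells were read in the same way. Of 6 germ cell markers outside the set, 5 Sertoli cell markers and 3 granulosa cell markers, 0 were called in the fit without a block. *Dnd1*, *Nanos2*, *Nanos3*, *Zbtb16*, *Ddx25* and *Rhox5* among them were already counted in the further lists, so these counts are not separate. The marker counts here stand beside 4% of all probe sets higher and 3.2% lower (6.32% and 4.99% with the block). With the block 1 germ cell marker was lower, *Zbtb16*, a transcription factor of spermatogonia and other cells, at 6.45, 6.50 and 6.28 in Sox9-GFP high cells, against 8.09, 7.06 and 6.93 in Sox9-GFP low cells (limma, adjusted p = 0.0307, and 0.0778 without the block). That call is the same one counted above among the specification genes with the block. The mean log2 value of the Sertoli list was 3.94 to 4.01 over Sox9-GFP high arrays and 3.87 to 4.07 over Sox9-GFP low arrays, and that of the germ cell list was 5.99 to 6.10 over Sox9-GFP high arrays and 6.11 to 6.29 over Sox9-GFP low arrays. *Kit*, in the germ cell list but also a gene of luminal progenitors, had means of 17.00 in Sox9-GFP high cells, against 16.56 in Sox9-GFP low cells. Of 5 immune, 5 endothelial and 4 adipocyte markers 0 were called without a block, and with it 1 endothelial marker, *Eng*, was lower (difference -0.64; limma, adjusted p = 0.0376, and 0.124 without the block). The 5 fibroblast markers did not move 1 way. *Dcn*, a matrix proteoglycan gene, had 9.44, 9.95 and 8.93 in Sox9-GFP high cells, against 11.64, 11.92 and 11.42 in Sox9-GFP low cells, and was lower (limma, adjusted p = 0.00122). *Postn*, a matrix protein gene, had 12.26, 10.73 and 10.95 in Sox9-GFP high cells, against 10.61, 7.42 and 8.56 in Sox9-GFP low cells, a difference of 2.45 (limma, adjusted p = 0.0617, and 0.000965 with the block). The part of other cell types in the differences of the germline and early embryo genes was not tested.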

How the data were processed

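RNA of 3 Sox9-GFP high and 3 Sox9-GFP low samples was measured on one-colour arrays, prepared with the GeneChip WT PLUS kit per the labels. The deposited values are log2 expression, 1 value for each probe set and array; how the authors normalized them is not given in the sources. Of 22206 probe sets, 19572 had a gene symbol, all matched to RefSeq (GRCm38.p6), and 2634 were unnamed. The whole table was fitted with limma 3.58.1 under R 4.3.3 by lmFit and eBayes, without a block. Two-sided p-values were adjusted by Benjamini-Hochberg at a threshold of 0.05 and checked on simulated data. With 200 changed probe sets in each of 20 simulated runs, 34.8% of changes of 1 log2 unit and 97% of changes of 2 were called. Of the calls, 4.77% were false. A gene that did not pass may therefore still differ by 1 log2 unit. The runs changed fewer probe sets than were called in the data. They also held no deviations shared by arrays with the same number, so these shares need not hold for the data. Folds are log2 differences put on the linear scale. Deviations of arrays with the same number correlated at 0.236, 0.232 and 0.218, all others at -0.06 or below. A fit with the number as a block is therefore given where it changes the call of a gene or list that was tested. The genes of the *Zscan4* and *Pramel* families are described without a block, and enter that fit only in counts over all members. Members and lists were chosen with earlier results of these data known. Every member could be named, and of each further list up to 4 called genes, or with none called up to 2, by largest difference. Alternatives were the block, quantile normalization, median centring, dropping the 33% of probe sets that were dimmest, a trended robust prior, array weights, leaving out arrays or numbers, the methods' t-test, averaging the probe sets of a gene and, added after seeing the data, identical values counted once. The number of arrays limits the precision.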

Additional observations from a re-analysis of the deposited data

How the results depend on the processing

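The differences of *Dmc1* and *Syce2* kept their direction in every setting that was run. The count of 10 members higher, of which 8 belong to families chosen for rises in this contrast, was 9 with quantile normalization, array weights or identical values counted once, 11 with the replicate block or the trended robust prior, 10 with median centring, without the dimmest probe sets and with the probe sets of a gene averaged, and between 2 and 10 on leaving out arrays or array numbers. It was 2 without number 2 of both sorts. Among single arrays it was 6 without Sox9-GFP high array 2, and 5, 4 and 5 without Sox9-GFP low arrays 1, 2 and 3. As 8 of the 10 genes come from families chosen for rises in this contrast, the stability of this count is no evidence about the set. The call of *Syce2* was lost with quantile normalization (adjusted p = 0.0709).

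Over all probe sets, 888 were higher and 711 lower. With the replicate block these were 1404 and 1108, without single arrays 493 to 672 were higher and 431 to 563 lower, and without a number in both sorts 231 to 377 and 316 to 396 (357 and 365 without number 2). The methods' t-test without adjustment called 2118 probe sets higher and 1647 lower, and after Benjamini-Hochberg 1 and 2, with 0 members and 0 genes of the further lists in either direction. Without adjustment it called 10 members higher, and 20 genes of the further lists higher and 11 lower. Of the further lists, 10 genes were higher and 3 lower, 14 and 5 with the block, and 1 to 10 were higher and 1 to 3 lower on leaving out arrays or numbers. The median log2 difference over the members was 0.0239 to 0.1028 without single arrays, 0.0656 to 0.1145 without a number (0.0779 without number 3) and 0.2255 without the dimmest probe sets, which leaves fewer members. Without detection values, what is dim and what is absent could not be told apart.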
